A study of Mus musculus with 40 samples.

Results

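Podocytes are the epithelial cells that wrap the glomerular capillaries, and the slit diaphragm between their foot processes is the last barrier of the filter that holds protein back from urine. The genes described here were chosen by name from the kidney count table: Nphs1, Podxl, Wt1, Synpo, Ptpro, Magi2, Cd2ap and Plce1. These are 8 of 55382 genes in the table, and all 8 passed the filter on low counts, as did 15943 genes in all. Nephrin (Nphs1) spans the slit as an adhesion protein, and Magi2 and Cd2ap are scaffold and adaptor proteins that hold slit diaphragm complexes together. Podocalyxin (Podxl) is the sialomucin of the apical membrane, Ptpro is a receptor tyrosine phosphatase of the same surface, and synaptopodin (Synpo) binds actin in the foot processes. Plce1 is a phospholipase C, and Wt1 is the transcription factor that podocytes keep from development into adult life. Loss of several of these genes causes proteinuria in mice and in humans.

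RNA of mouse kidney tissue was sequenced, 20 libraries in 4 groups of 5. Per the methods, the floxed mice were C57BL/6 and the Cre line was of the substrain C57BL/6J. EGFR KO mice carried floxed EGFR alleles together with the transgene Tg(Tek-cre)1Ywa, whose Tie2 (Tek) promoter drives Cre in endothelial cells and also in blood-forming cells. The WT controls carried the same Cre but no loxP sites, so Cre was present in all groups, and the deletion is not induced in adult life. A high fat diet (HFD, 60% of energy from fat) or a standard diet (SD, 10%) was fed for 18 weeks from 6 weeks of age, and kidneys were taken after that. The sex of the mice is not given in the sources used here. The questions were whether diet and loss of EGFR in endothelial cells move the glomerular signal of the kidney.

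Total counts ranged from 19643033 to 48833447 per library (median 24182781). Levels are given as FPM, counts per 1000000 of the TMM-normalized library size. In RNA of kidney tissue, fewer podocytes and less RNA per podocyte cannot be told apart. Egfr itself, measured in all cells of the kidney, had medians of 54.3 FPM in WT SD, 45.6 in WT HFD, 55.3 in KO SD and 38.5 in KO HFD, and KO differed from WT by -0.09 on the log2 scale under SD (edgeR, adjusted p = 1.00) and by 0.06 under HFD (adjusted p = 0.947). With HFD, Egfr fell by 0.40 in the average over genotypes (edgeR, adjusted p = 0.0292). This call was lost without a1 and a12, described next (adjusted p = 0.0712). It was also lost without a8, a9 and a17, described further below (adjusted p = 0.0870). The deleted part is exon 1, and counts cover the whole gene in all kidney cells, so this level does not check the deletion. The paper describes genomic PCR of the excision and qRT-PCR of EGFR mRNA in lung as checks of the knockout. Counts of the library a1, labelled KO HFD, and of a12, labelled WT HFD, differed by less than the sampling noise. Their median chi-square over genes was 0.0272, where noise alone gives 0.455 and the next most similar pair of kidneys had 1.55. Both have different group labels and could not be merged, so results that turn on them are given with and without both.

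The library a18 of WT SD had low levels of most of the 8 members. It held 4.55 FPM of Nphs1, while the other 19 kidneys had at least 12.5. Podxl stood at 56.2 FPM against at least 109, Wt1 at 2.62 against at least 5.39, Synpo at 17.1 against at least 28.2 and Ptpro at 4.15 against at least 8.59. All 8 members were lower in a18 than the median of the other libraries, at 0.254 (Nphs1) to 0.850 (Cd2ap) of it, and 7 of 8 were at or under 0.5 of that median. Cd2ap, which is expressed in many cell types, was the exception. Lists of related podocyte genes were lowered less. Median ratios were 0.601 for slit diaphragm and adaptors, 0.605 for transcription factors and 0.638 for podocyte-enriched genes. They were 0.757 for cytoskeleton and 0.920 for basement membrane. Of 16 podocyte-enriched genes 12 were below the median of the others, and Htra1 reached 1.46 times it. Their sum was 939 FPM in a18 and 840 to 1175 in the others. The low values were not particular to podocytes: all 8 genes of the glomerular endothelium list were at 0.245 to 0.443 of the median of the other kidneys, and the summed level of that list was 91.6 FPM in a18 and 161 to 342 in the others. The mesangium list summed to 82.6 FPM in a18 and 99.9 to 159 elsewhere. The low values were not particular to the glomerulus either: of 5 tested leukocyte genes 4 were at or under 0.5 of that median (median ratio 0.413), and their sum was 68.7 FPM in a18 and 69.5 to 104 in the others. The 8 genes of the proximal tubule had ratios of 0.486 to 3.19 (median 1.07), and their sum of 11720 FPM lay above the range of 9126 to 11510 in the other libraries. Of 10421 genes with a mean of at least 5 FPM, 381 were at or under 0.5 of the median of the other kidneys in a18, and 12 to 135 were in any other kidney. Of 37 diet calls among the genes of the other lists and Egfr, 36 stayed without a18, and none changed sign.

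**Figure D1:**
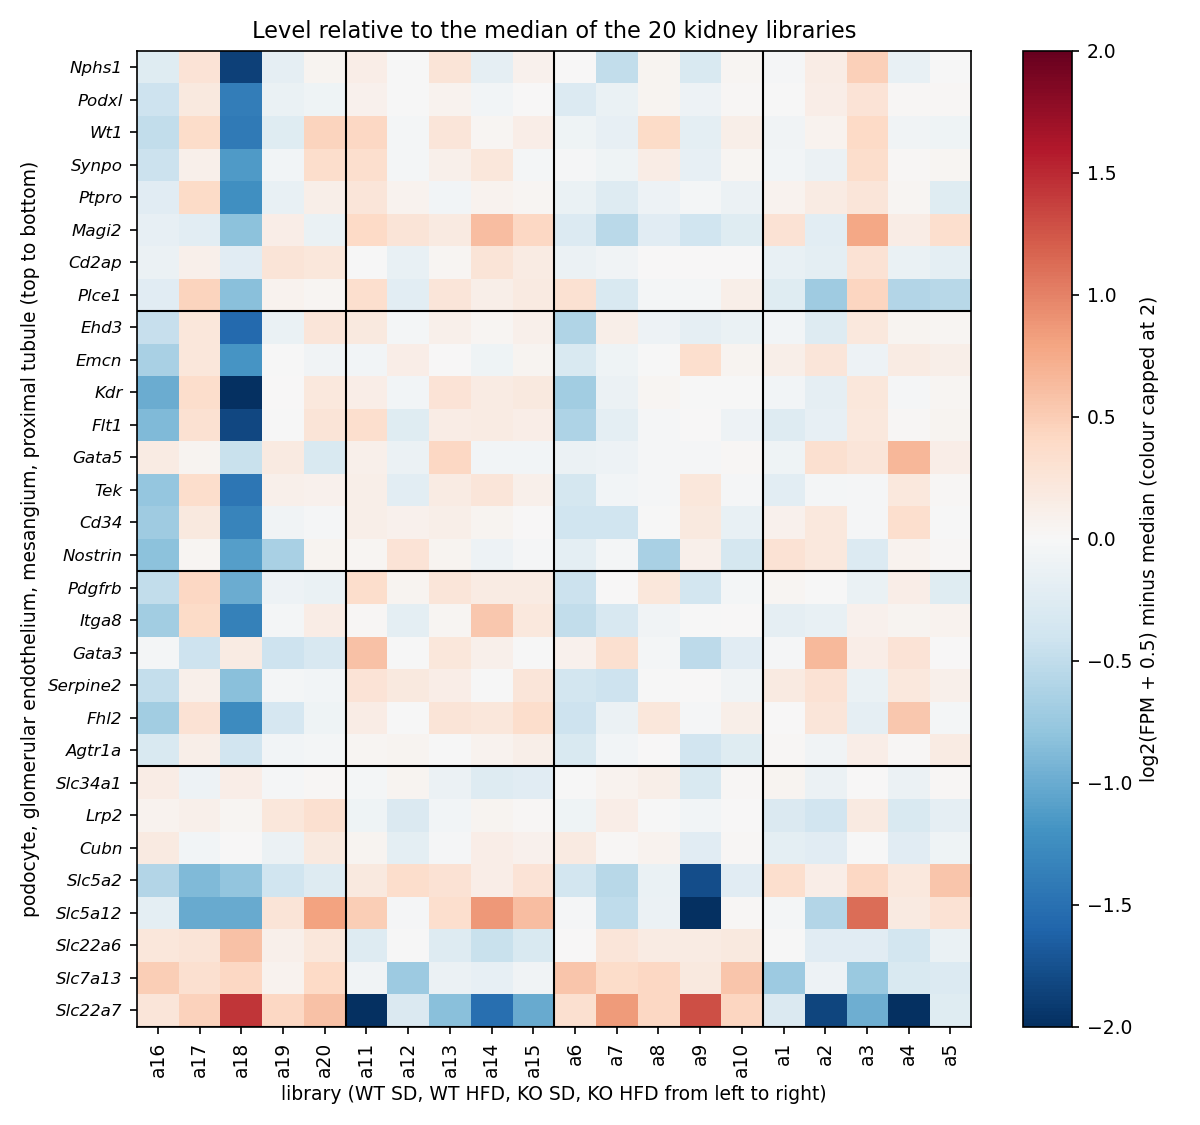
Each column is 1 kidney library and each row 1 gene. The colour is log2(FPM + 0.5) minus the gene's median over the 20 kidneys, from blue (lower) to red (higher). Rows run from the 8 podocyte genes over the lists for glomerular endothelium and mesangium to that for proximal tubule. The blue column in the first group (WT SD) is a18. In it the 8 podocyte genes and the 8 genes of the endothelial list are low and most proximal tubule genes are not.

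**Figure D2:**
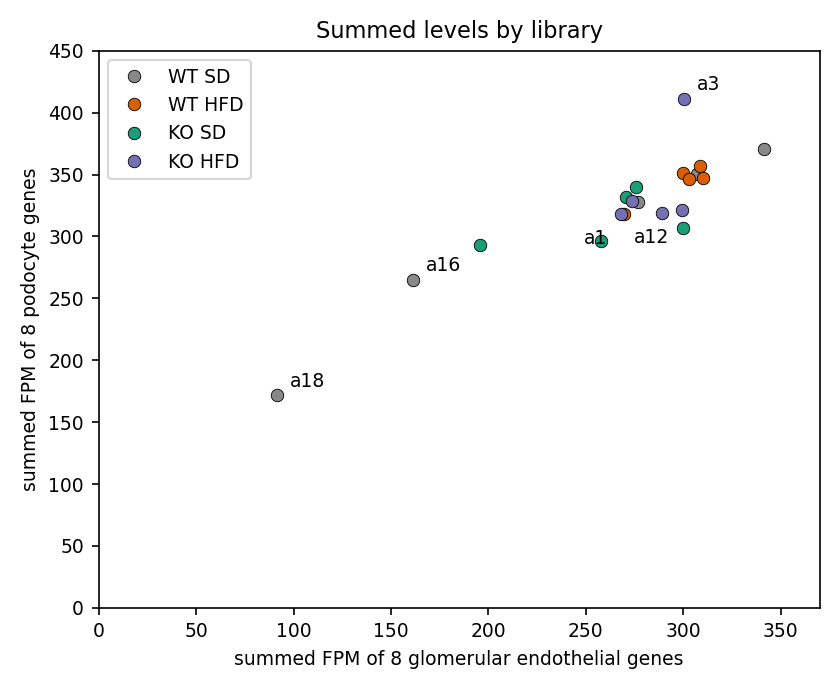
Each point is 1 kidney library. The x axis is the summed FPM of the 8 genes listed for glomerular endothelium, and the y axis that of the 8 podocyte genes. The library a18 has the lowest sums, 91.6 and 172 FPM, followed by a16 of the same group at 161 and 265 FPM, and the library a3 of KO HFD has the highest podocyte sum, 411 FPM.

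The promoters of Magi2 are shown because Magi2 was the only member past the test for diet. RefSeq windows of the build GRCm38.p6 were matched by symbol for 5 of 8 members. Magi2 lies on chromosome 5 (19227036 to 20704792, plus strand, GRCm38, GENCODE M21) and has 2 annotated starts in that table. The sequences before each start, at chr5:19226796-19227035 and chr5:19907268-19907517, are given 5′ to 3′ on the plus strand, without bases that the annotation places in an exon. Capitals mark letters found on either strand of the motifs searched, CANNTG (E-box), GCGTGGGNG (a WT1 or EGR type site) and TAATTA (homeobox core).
Magi2 first start: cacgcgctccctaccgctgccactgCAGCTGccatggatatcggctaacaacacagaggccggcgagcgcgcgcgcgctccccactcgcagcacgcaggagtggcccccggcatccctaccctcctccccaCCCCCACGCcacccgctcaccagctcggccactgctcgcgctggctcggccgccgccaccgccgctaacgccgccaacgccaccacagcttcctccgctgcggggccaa
Magi2 second start: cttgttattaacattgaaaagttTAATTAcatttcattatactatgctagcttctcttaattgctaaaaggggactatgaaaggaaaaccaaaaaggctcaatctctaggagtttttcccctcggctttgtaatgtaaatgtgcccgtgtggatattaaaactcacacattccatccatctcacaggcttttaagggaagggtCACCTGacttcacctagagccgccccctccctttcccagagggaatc
The first window holds an E-box and a match to GCGTGGGNG, and the second an E-box and a match to TAATTA. Among 32851 promoter windows of 250 bases, 66.2% hold an E-box, 1.65% hold GCGTGGGNG and 4.84% hold TAATTA. A match describes letters only and does not show binding.

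Per length, the order of the members in kidney ran from Podxl, at a mean level of 25.7 FPM per kb of annotated exon (SD 4.58 over 20 libraries), over Cd2ap at 5.98 and Synpo at 4.04 to Nphs1 at 2.63. Below them came Ptpro at 1.51, Wt1 at 1.30, Magi2 at 0.826 and Plce1 at 0.257 FPM per kb. Only the neighbours Ptpro and Wt1 lay closer to each other than the spread over libraries (SD 0.290 and 0.323). Exon lengths are those of all annotated transcripts together, so a gene used in a short form is set too low. These levels are small beside those of the tubule: Slc34a1, the phosphate transporter of the proximal tubule, had a mean of 5409 FPM, and the most abundant member, Podxl, had 141 FPM.

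The aortas of the same study, normalized separately, tell which members are not restricted to podocytes. Nphs1 had a count of 0 in all 20 aortas, which allows at most 0.176 FPM in the library where this limit is highest (3 counts). Wt1 had 0 to 3 counts per aorta. Synpo, by contrast, had 307 to 547 FPM in aortas and 17.1 to 49.02 in kidneys, Cd2ap had 77.8 to 134 FPM in aortas, and Podxl had 20.5 to 150. Ptpro had 1.04 to 5.36 FPM in aortas (19 to 107 counts) and 4.15 to 13.7 in kidneys. Magi2 had 8.04 to 19.5 FPM in aortas and 4.85 to 15.6 in kidneys, and Plce1 had 21.3 to 61.3 and 2.14 to 5.88. Signal of Synpo, Cd2ap, Podxl, Ptpro, Magi2 and Plce1 in a kidney can thus also come from cells outside the podocyte, and their share was not tested.

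Under HFD, Magi2 rose in both genotypes and the other 7 members did not pass the test. This is 1 of 8 members in WT, where 6.71% of all genes tested were called, 1 of 8 in KO, where 6.34% were, and 1 of 8 in the average over genotypes, where 16.4% were, so the count of members is near the background of each comparison. In WT kidneys, Magi2 had 7.92, 7.6, 4.85, 9.78 and 8.11 FPM under SD and 12, 10.8, 10.2, 13.9 and 12.1 under HFD. The lowest HFD library was above the highest SD library. In KO kidneys, Magi2 had 7.3, 5.94, 7.54, 6.64 and 7.45 FPM under SD and 11, 7.6, 15.6, 9.94 and 11.3 under HFD, again without overlap, though the gap between the groups was small, from 7.54 to 7.60 FPM. The log2 fold change was 0.62 ± 0.17 (SE) in WT (1.54-fold, edgeR, adjusted p = 0.0316) and 0.67 ± 0.17 in KO (1.59-fold, adjusted p = 0.0213). The exact permutation test gave an unadjusted p = 0.00794 in each genotype, the smallest that 5 against 5 allows. The near-identical a12 and a1 lie in the WT and KO HFD groups, so these p-values are not independent. The exact test was not run without them. How many of all genes tested have diet groups without overlap was not counted, so no background stands beside this separation. Averaged over genotypes, the change was 0.65 with a 95% interval of 0.39 to 0.90 (adjusted p = 0.000819).

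The calls within a genotype depended on single libraries. In WT, the call was lost without a18 (log2 fold change 0.51, edgeR adjusted p = 0.0620) and without any of a11, a14, a15 and a16, and in KO it was lost without a3 (0.53, adjusted p = 0.0574), a7 or a9. Over 19 alternatives the adjusted p ranged from 0.00658 to 0.0837 in WT and from 0.00260 to 0.0921 in KO, and the change stayed positive in every one. The average over genotypes passed the test in every fit that left out 1 library, with log2 fold changes of 0.58 to 0.70. Without the near-identical a1 and a12, Magi2 changed by 0.65 in WT (adjusted p = 0.0404) and 0.67 in KO (adjusted p = 0.0411). Summed marker levels of other cells are given beside this. The summed level of the proximal tubule list was 10270 to 11720 FPM in WT SD, 9268 to 9962 in WT HFD, 9233 to 11320 in KO SD and 9126 to 10370 in KO HFD. The glomerular endothelium list summed to 91.6 to 342 FPM, 269 to 310, 196 to 300 and 268 to 301 in the same groups. The diet groups of the proximal tubule list did not overlap in WT and overlapped in KO, and those of the endothelial list overlapped in both. Slc34a1 alone had a mean of 5409 FPM in the tubule list, and 4 of its 8 genes were called for diet in each genotype. Its sum is thus not a measure of tubule cells alone, and how many sums or genes separate like this was not counted. Their part in the rise of Magi2 was not tested.

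**Figure D3:**
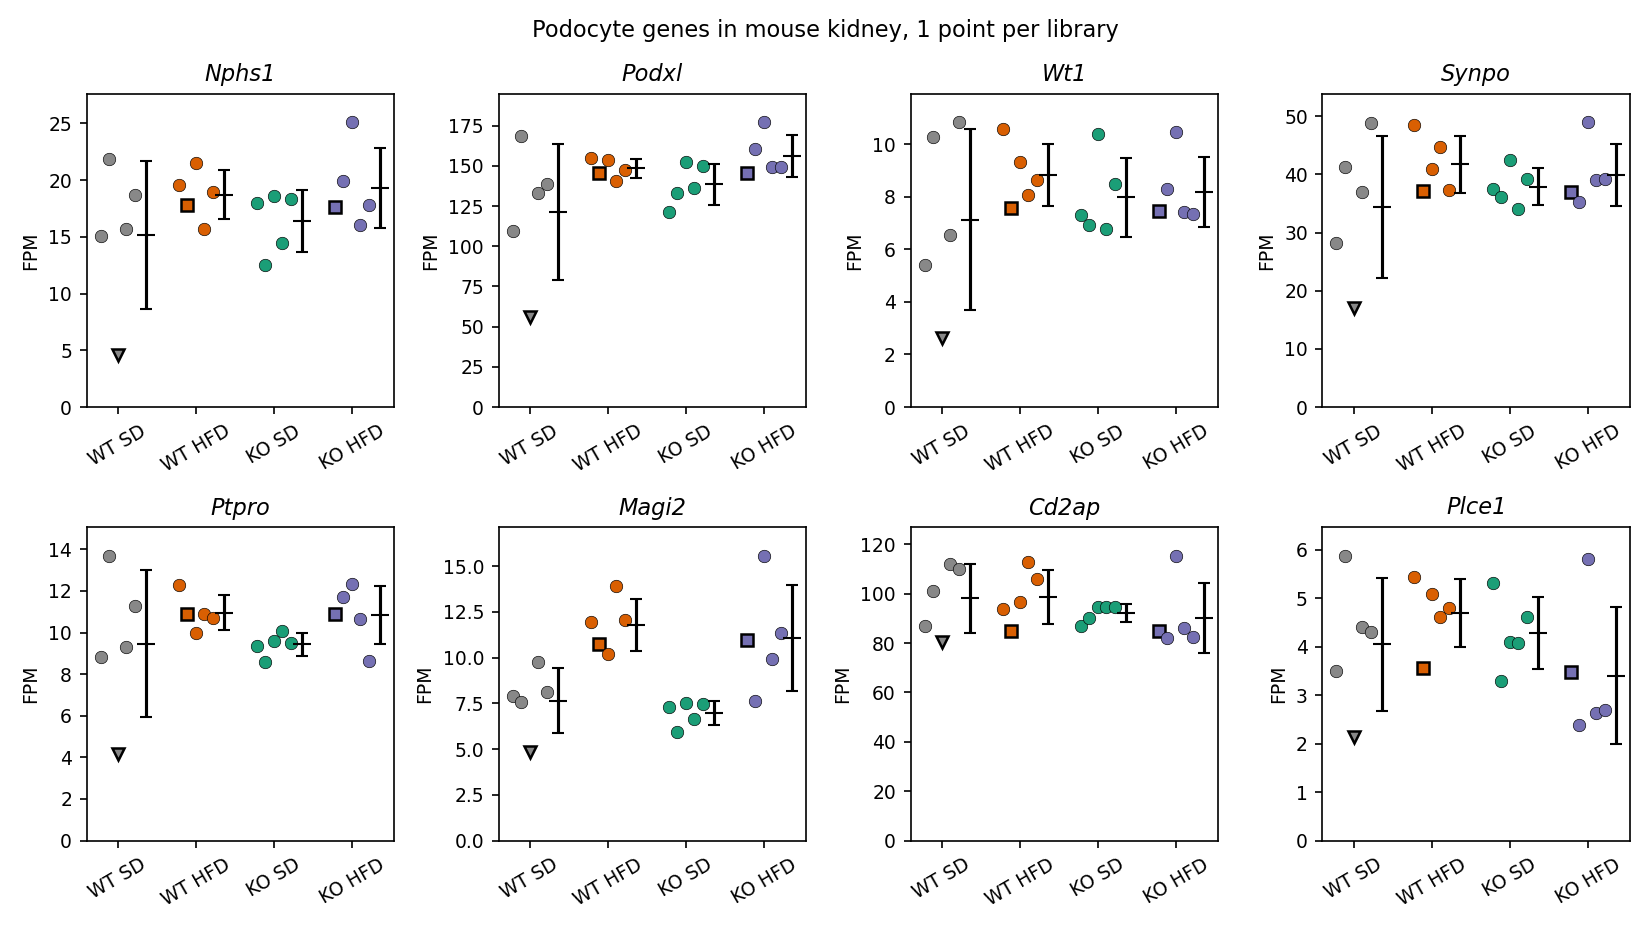
Each panel is 1 gene, with FPM on the y axis from 0 and the 4 groups on the x axis. Each point is 1 library, triangles mark a18, squares mark the near-identical a1 and a12, and the bar to the right of each group is the mean ± SD (n = 5). Only Magi2 has HFD groups that lie wholly above the SD groups of the same genotype, and a18 is the lowest point of its group in each panel.

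Nphs1, in which the pseudogene Rps12-ps4 lies on the opposite strand with 112 to 772 counts of its own, varied most within WT SD. Its levels were 15, 21.8, 4.55, 15.7 and 18.7 FPM under SD and 19.6, 17.8, 21.6, 15.7 and 18.9 under HFD, with a mean of 15.2 ± 6.51 (SD, n = 5) against 18.7 ± 2.16. Groups overlapped, and the log2 fold change was 0.30 ± 0.25 (SE, 95% interval -0.23 to 0.84; edgeR, adjusted p = 0.554). Without a18, it was 0.09. In KO kidneys, Nphs1 had 17.9, 12.5, 18.6, 14.4 and 18.3 FPM under SD and 17.6, 20, 25.1, 16.1 and 17.8 under HFD, and the log2 fold change was 0.24 (95% interval -0.29 to 0.77).

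Podxl, the most abundant member, had 109, 169, 56.2, 133 and 139 FPM in WT SD and 155, 146, 154, 141 and 148 in WT HFD. The log2 fold change was 0.29 (95% interval -0.07 to 0.66; edgeR, adjusted p = 0.385) and fell to 0.12 without a18. In KO SD kidneys it had 122 to 153 FPM and in KO HFD 145 to 177. These groups overlapped, and the log2 fold change was 0.17 (95% interval -0.19 to 0.54).

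The slit diaphragm adaptor Cd2ap was nearly level: its change with HFD was 0.01 in WT (95% interval -0.21 to 0.23) and -0.03 in KO (95% interval -0.25 to 0.19), the narrowest intervals of the 8. Wt1 changed by 0.31 in WT and 0.04 in KO, and Synpo by 0.28 and 0.07 on the log2 scale. Ptpro changed by 0.21 and 0.20. Plce1 changed by 0.21 in WT and -0.33 in KO, and its 95% interval in KO ran from -0.84 to 0.19. None of these passed the test. All 8 members had values above 0 for HFD in WT, with a median of 0.28 on the log2 scale where the median over all genes tested was 0.00, and 6 of 8 had in KO, with a median of 0.12. Without a18, the WT changes of the 7 members other than Magi2 ran from -0.04 (Cd2ap) to 0.12 (Podxl).

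**Figure D4:**
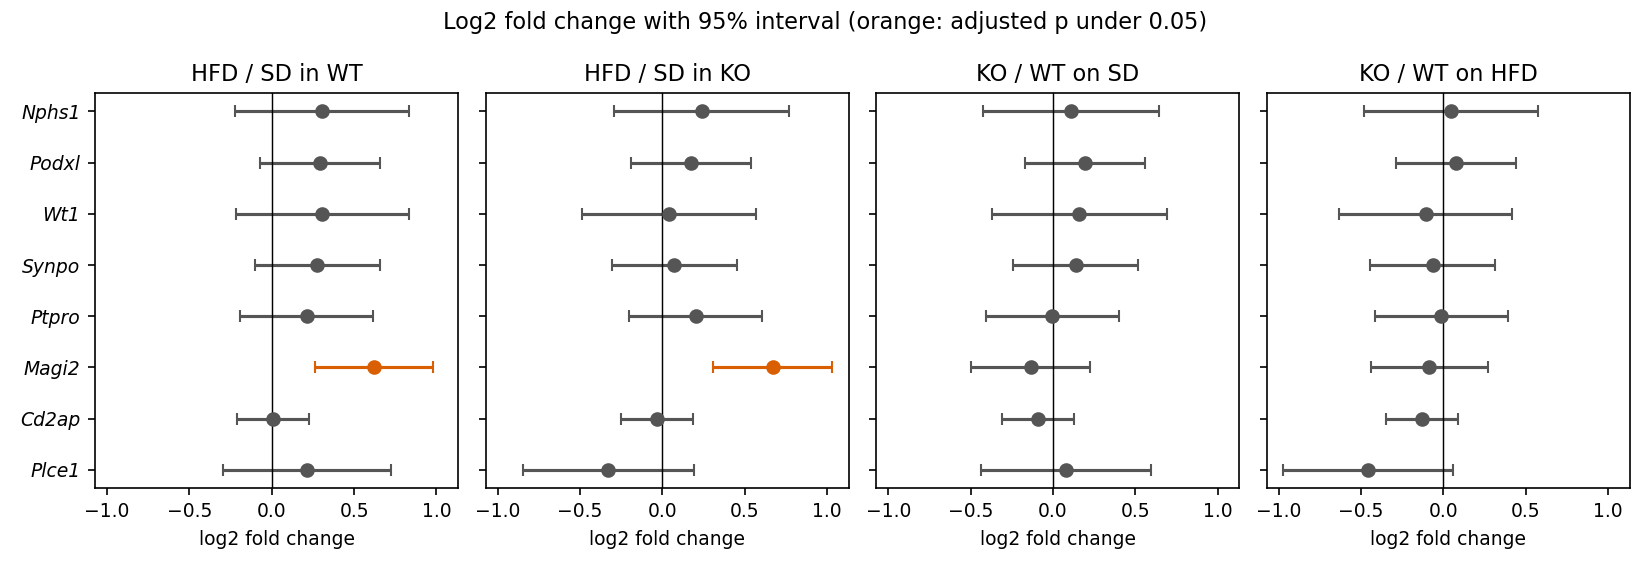
Log2 fold changes on the x axis with their 95% intervals for the 8 genes, for HFD against SD in WT and in KO and for KO against WT under SD and under HFD. Intervals of Magi2 for both diet comparisons lie above 0 (orange, adjusted p under 0.05), and every other interval includes 0.

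Loss of EGFR moved none of the 8 genes past the test. Under SD, KO against WT ranged over the members from -0.14 (Magi2) to 0.19 (Podxl) on the log2 scale, and the widest interval was that of Nphs1, -0.42 to 0.64. Without a18, which belongs to WT SD, the values ran from -0.25 (Magi2) to 0.03 (Podxl). Under HFD, KO against WT ranged from -0.46 (Plce1) to 0.07 (Podxl). In Plce1 the pseudogene AC111023.1 lies on the opposite strand, with 10 to 100 counts of its own. Plce1 had 5.43, 3.56, 5.08, 4.62 and 4.79 FPM in WT HFD and 3.48, 2.38, 5.82, 2.63 and 2.71 in KO HFD. Here 4 of 5 KO libraries were below all WT libraries and a3 was above them. The highest of the 4, a1 at 3.48 FPM, and the lowest WT library, a12 at 3.56, are the near-identical pair. The change of -0.46 had a 95% interval of -0.97 to 0.06 (edgeR, adjusted p = 0.814), and it was -0.55 without both (adjusted p = 0.495). No member had an unadjusted p under 0.05 in any genotype comparison, and the DESeq2 Wald test called 0 members as well. Over all genes, the share called by edgeR was 0% for KO under SD, 0% for KO under HFD, 0% for the average of both and 0% for the interaction. At an unadjusted p under 0.05, 426, 546, 768 and 285 genes stood in these comparisons, in that order, and DESeq2 called 0, 0, 1 and 0.

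The interaction asks whether HFD acted differently in KO and WT. For Magi2 it was 0.05 on the log2 scale (95% interval -0.46 to 0.56; edgeR, adjusted p = 1.00), and for Nphs1 it was -0.07 (95% interval -0.82 to 0.69). Plce1 had the value farthest from 0, -0.54 (95% interval -1.27 to 0.19). In fits that left out 1 library, its value ran from -0.81 to -0.39, the last without a18. Differences of up to these bounds cannot be told from 0 with 5 libraries a group.

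Few other podocyte genes passed the test. Of 61 listed genes for slit diaphragm adaptors, transcription factors, podocyte-enriched genes, cytoskeleton and basement membrane, 48 could be tested and 11 had a count of 0 in every library. These 11 lie on chromosomes 8, 9 and X and include Itgb1 and Dnm2, which most cells use, so the 0 is not read as a lack of expression. Bmp7, a secreted growth factor of podocytes and of the distal nephron, fell by 0.37 under HFD in WT (edgeR, adjusted p = 0.00206) and by 0.28 in KO (adjusted p = 0.0157). Its mean was 51.7 FPM in WT SD and 39.9 in WT HFD, 50.1 in KO SD and 41.2 in KO HFD. Its call in KO was lost without a8 and a9 of KO SD and a17 of WT SD (edgeR, adjusted p = 0.0953). These libraries were set apart for high immediate-early genes, whose values are not reported here. It was the only one of the 48 called within a genotype, where 6.71% of all genes were called in WT and 6.34% in KO. In the average over genotypes, where 16.4% of all genes were called, 3 of the 48 were: Bmp7, the actin-binding Cttn with a fall by 0.12 (adjusted p = 0.0495), and the scaffold Slc9a3r2, which rose by 0.25 (adjusted p = 0.0217). The call of Cttn was lost without a18 (edgeR, adjusted p = 0.0582), without a1 and a12 (adjusted p = 0.127) and without a8, a9 and a17 (adjusted p = 0.155), and also in the edgeR likelihood ratio test, with no filter and with a filter of at least 1 FPM on the mean. None of 11 tested slit diaphragm genes was called. The most abundant of that list, Iqgap1, Pik3r1 and Fat1, had means of 76.8, 64.3 and 44.0 FPM. Among the transcription factors, Zhx2 and Tcf21 had means of 28.2 and 19.01 FPM, and Tcf21 changed by 0.87 in WT without passing the test (edgeR, adjusted p = 0.121). For KO against WT and for the interaction 0 of the 48 were called, with 2, 3, 4 and 0 at an unadjusted p under 0.05 under SD, under HFD, in their average and in the interaction, and 0 by DESeq2 in each.

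Genes listed for neighbours of the podocyte in the glomerulus were also compared. The list for glomerular endothelium was led by the VEGF receptor gene Kdr, at a mean of 71.0 FPM. Endothelium outside the glomerulus can also express genes of this list, such as Tek, and its share was not tested. All 8 genes of the list were higher under HFD in both genotypes, with medians of 0.32 in WT and 0.16 in KO. None of the 8 was called, where 6.71% of all genes were in WT and 6.34% in KO. Without a18, the WT median was 0.13, and the change of Kdr in WT went from 0.40 to 0.18. In the mesangium list, 2 of 6 genes were called in the average over genotypes, where 16.4% of all genes were. Serpine2, a protease inhibitor, rose by 0.36 (edgeR, adjusted p = 0.0222) and the angiotensin receptor gene Agtr1a by 0.22 (adjusted p = 0.0272). Without a1, a12 and a18 the call of Agtr1a was lost (edgeR, adjusted p = 0.0545). Called in the tubule lists were 4 of 8 proximal tubule genes and 1 of 4 distal convoluted tubule genes in each genotype. Of 6 thick ascending limb genes 0 were called in WT and 2 in KO, and of 7 collecting duct genes 0 in each. Some changes there were larger: Slc22a7, an organic anion transporter, fell by 1.74 in WT and by 1.62 in KO. The glucose transporter gene Slc5a2 rose by 0.81 and 0.85. Pvalb, a marker of the distal convoluted tubule, rose by 1.27 and 1.63. Pax8, a transcription factor of the parietal and tubular epithelium, fell by 0.40 and 0.45. The macrophage gene Cd68 rose by 0.92 in WT, and by 0.45 in KO without passing the test (edgeR, adjusted p = 0.207). In KO, the thick ascending limb genes Slc12a1 and Egf fell by 0.62 and 0.59. In WT they fell by 0.21 and 0.31 without passing the test (edgeR, adjusted p = 0.501 and 0.258). Cd68, Slc12a1 and Egf were all called in the average over genotypes (adjusted p = 0.00171, 0.0133 and 0.00481), and the interaction called no gene. In the average over genotypes, Slc12a3 and Adgre1 rose as well, by 0.43 and 0.67, and Fxyd4, Krt19 and Csf1r fell by 0.51, 0.80 and 0.26. Without a1 and a12 the calls of Krt19 and Csf1r were lost (edgeR, adjusted p = 0.0576 and 0.0530), and without a18 as well that of Slc5a2 in WT (adjusted p = 0.107). Without a8, a9 and a17 the calls in KO of Slc22a7, Slc12a1 and Egf were lost (adjusted p = 0.112, 0.0760 and 0.0557), as were those of Slc12a3, Krt19 and Csf1r in the average.

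The members were compared from kidney to kidney. Over 18 libraries (without a1 and a12), on deviations of log2(FPM + 0.5) from group means, all 28 pairs had a positive Pearson r, from 0.52 (Ptpro and Magi2) to 0.94 (Wt1 and Synpo). In permutation tests with 100000 resamples, 28 of 28 pairs had an adjusted p under 0.05 over the 28 pairs for Pearson r, and 24 of 28 for Spearman rho, which ran from 0.40 to 0.85. Much of this rested on a18. Without it, r ran from 0.01 to 0.85, and 19 of 28 pairs kept an adjusted p under 0.05. Leaving out the pair of libraries farthest from the median of the first gene gave r of 0.24 to 0.82. Among Nphs1, Podxl, Wt1, Synpo and Ptpro, r was 0.85 to 0.94 with a18 and 0.53 to 0.85 without it. Magi2 and Cd2ap were less tied to these 5, with r of 0.52 to 0.70 for Magi2 and 0.55 to 0.70 for Cd2ap. Without a18, r was 0.01 to 0.46 for Magi2 and 0.30 to 0.60 for Cd2ap, while Magi2 kept r = 0.72 with Cd2ap.

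The genes whose deviations were most like the mean of the 8 members over the same 18 libraries, members left out, were Thsd7a, Stard9, Pla2r1, Arhgap31, Usp25, St3gal1, Epb41l2, Gimap8, Sema3e and Kirrel. Pearson r ranged from 0.971 (Thsd7a) to 0.941 (Kirrel). Kirrel encodes a nephrin-like slit diaphragm protein, and Thsd7a and Pla2r1 encode surface proteins known as targets of autoantibodies in human membranous nephropathy. Thsd7a and Kirrel were on the lists of related podocyte genes chosen by name, and the other genes named here were on none of the lists. Without a18, Thsd7a stayed first with r = 0.933, and the others took ranks from 8 (Stard9) to 110 (Usp25). Pla2r1 then took rank 26 and Kirrel rank 33. The r values are a description, since 15943 genes were tested and all share the same libraries.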

How the data were processed

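RNA of 20 mouse kidneys was analysed, with 20 aortas as a side description; the groups follow the labels of genotype, diet and tissue. The counts per gene deposited by the authors were used as they stand. Per the labels and methods, paired-end reads were mapped to GRCm38/mm10 and counted with featureCounts; the submitters' processing notes name HISAT2 2.1.0, while the methods name another mapper. Strand and multiple positions are not given in the sources used here, so reads of overlapping genes can be misplaced. The labels do not say which libraries came from separate animals, and p-values measure the spread between libraries, which may in part be technical.

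The kidney table was fitted in edgeR 4.0.16 (R 4.3.3) with TMM, filterByExpr by group, a robust quasi-likelihood test over 4 groups and Benjamini-Hochberg adjustment over 15943 genes, with a call at an adjusted p under 0.05. DESeq2 1.42.0 was an alternative. Total counts of 19643033 to 48833447 and a biological coefficient of variation of 22.3% set the precision. Log2(FPM + 0.5) served the exact and permutation tests. On simulated data with known fold changes, the fit was checked. Other alternatives were size factors, filters, thresholds, the groups compared alone and left-out libraries.

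The members and lists were chosen with earlier results of these data known. Named are all members, the called genes of each list (at most 5) and its 3 most abundant, and the 10 genes most like the members. Leaving out a18 with a1 and a12, and leaving libraries out for genes of the other lists, were added after seeing the data. Some genes, on parts of chromosome 8 and on chromosomes 9, X and Y, were at 0 in every library and are not analysed here. Some genes that meet the rule for named genes are not reported here.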

Additional observations from a re-analysis of the deposited data

Results flagged for a closer look

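Among 32 sets of 5 libraries (8 genes in 4 groups), 2 held a library far from the other 4, a gap that chance gives in about 1 set in 20. Both were in KO HFD and in the library a3, which had 49.02 FPM of Synpo and 115.5 FPM of Cd2ap, each above the other 4 libraries. The same library had the highest level of its group for all 8 members.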

How the results depend on the processing

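No paired analysis was possible because the groups share no replicate number. Under the thresholds of the study (1.5-fold and 5 FPM added), related podocyte genes called fell to 0 for HFD in WT, 0 in KO and 0 in the average. With DESeq2 size factors 5 were called in the average, and the DESeq2 Wald test called 3, 2 and 7 in WT, KO and the average; without a filter 0 were called in KO. Without a8, a9 and a17, members called were 0 in WT and 0 in KO, and related genes 4 and 0. Without a1, a12 and a18, and with only the groups compared, members called in WT were 0 and 0. Leaving out 1 library at a time gave 0 to 1 members in WT, 0 to 1 in KO and 1 to 1 in the average, and 1 to 3, 0 to 2 and 2 to 6 related genes; 0 to 0 were called for genotype and interaction. The upper values came without a17 (WT) and without a3 (KO and the average, where Agrn, Mapt and Tcf21 were added). The cause was not tested. No fold change of a member with a call changed sign, and among 1148 values of the members without Magi2, 68 did. Levels and the correlation count kept their size with other scalings and with all 20 libraries. Depth limits Plce1 most, with 46 to 169 counts per library.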
